A study of Mus musculus with 10 samples.

Results

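The mouse genes Ms4a4a, Ms4a4c, Ms4a6b, Ms4a6c, Ms4a6d and Ms4a7 were followed across phagocytes of the Peyer's patch and the blood. These 6 genes were listed by name, with earlier results of these data known. They are 6 of the 19 genes whose symbol begins with Ms4a among the 32285 genes counted. Messenger RNA of single cells was counted as UMIs, the molecular tags that mark single transcripts, in 2 datasets in which antibody-bound hashtags recorded the sorted population of each cell. Dataset 1 was 1 library from the Peyer's patches of 30 mice and the blood of 20 mice. Dataset 2 used the Peyer's patches of 20 mice and the blood of 18 mice, in 4 libraries. All mice were C57BL/6Rj females, and cells of many animals were pooled, so each population had 1 pool per dataset.

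Peyer's patches, the lymphoid follicles of the gut wall, came from untreated mice and were digested with collagenase II and DNase I before enrichment of CD11c+ cells. Their LysoDCs, lysozyme-bearing phagocytes with dendritic cell features, were sorted in dataset 1 as follicular, immature, intermediate and mature LysoDCs, beside immature and maturing cDC2s, a class of conventional dendritic cells. Blood cells with high CD115, a receptor of the monocyte lineage, came from mice that had received clodronate-loaded liposomes intravenously 9 days earlier. They were sorted as Ly6C+ monocytes, CD43+ monocytes and cells with neither surface protein, called DN blood cells here. For dataset 2 the labels tie no LysoDC hashtag to a subset, and 1 hashtag marked the DN cells with and without the chemokine receptor CCR2. Dataset 2 therefore gave LysoDCs and DN blood cells that were not divided further. Tissue, clodronate treatment, digestion and CD11c enrichment cannot be told apart in any comparison of LysoDCs with blood cells.

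Ms4a genes encode small proteins that cross the membrane several times and sit with other receptors at the cell surface or in intracellular membranes. The best known relatives are Ms4a1, which encodes the B cell antigen CD20, Ms4a2, the beta chain of the high-affinity IgE receptor of mast cells and basophils, and Ms4a3, a gene of myeloid progenitors. In macrophages MS4A4A associates with the beta-glucan receptor Dectin-1, and Ms4a7 is widely used as a macrophage marker.

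All 19 family genes lie in 1 cluster on chromosome 19 of GRCm38, between 10962293 and 11640851, and all are annotated as protein-coding. Ms4a7 (ENSMUSG00000024672, 11321039 to 11336146) is on the minus strand. Next to it on the plus strand are Ms4a4a (ENSMUSG00000101389, 11375523 to 11392790) and Ms4a4c (ENSMUSG00000024675, 11404770 to 11427246). Beyond Ms4a4b follow Ms4a6c (ENSMUSG00000079419, 11469366 to 11482192) and Ms4a6b (ENSMUSG00000024677, 11516512 to 11531256), and Ms4a6d (ENSMUSG00000024679, 11586604 to 11604849) is on the minus strand. The 6 genes thus span 283.8 kilobases, with Ms4a4b and Ms4a4d between them.

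The sequences before the starts of Ms4a6b and Ms4a6c are shown because they were the only pair with a long identical run among the 5 genes compared. Ms4a6d had no upstream sequence in the set used, so it was not compared. The RefSeq windows of 250 bases before the start are printed 5′ to 3′ from GRCm38.p6, chr19:11518309-11518558 for Ms4a6b and chr19:11469118-11469367 for Ms4a6c, both on the plus strand. RefSeq and GENCODE starts differ: the Ms4a6b window precedes the RefSeq start and lies inside the longer GENCODE gene given above. Capitals mark the 2 runs of at least 15 bases that are identical in both.
Ms4a6b: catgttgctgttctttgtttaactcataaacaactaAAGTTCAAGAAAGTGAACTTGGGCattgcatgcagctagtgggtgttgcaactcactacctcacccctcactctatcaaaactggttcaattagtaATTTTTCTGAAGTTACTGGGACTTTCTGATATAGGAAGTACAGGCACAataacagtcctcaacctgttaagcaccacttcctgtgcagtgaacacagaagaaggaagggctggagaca
Ms4a6c: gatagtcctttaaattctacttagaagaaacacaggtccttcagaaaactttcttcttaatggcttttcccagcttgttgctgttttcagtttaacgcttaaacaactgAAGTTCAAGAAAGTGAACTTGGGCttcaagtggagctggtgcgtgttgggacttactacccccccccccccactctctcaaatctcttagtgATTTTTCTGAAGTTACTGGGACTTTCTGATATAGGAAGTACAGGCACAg
The longer run covers 48 bases and lies 118 to 71 bases before the Ms4a6b start and 49 to 2 bases before the Ms4a6c start. Over the 15 pairs of windows from these 5 genes (Ms4a7 has 2 starts), the other 14 pairs shared at most 9 bases in a row. This search for shared runs was made after the sequences had been seen. An interferon-stimulated response element (ISRE, GAAA, any 2 bases and GAAA), an ETS and PU.1 type motif (GAGGAAGT) and a C/EBP type motif (TTGCNNAA) were also sought on both strands. They matched in 0 of these 6 windows, against 2.98%, 2.44% and 9.56% of the 32851 RefSeq windows of this length. Only exact matches were counted, so sites close to these motifs were missed. The longer printed run holds TAGGAAGT, which differs from the ETS and PU.1 type motif in its first base. The shorter run holds GAAAGTGAAC, which differs from the ISRE in its last base. Within the last 500 transcript bases, where 3′ reads fall, 11.1% of the distinct 50-base words of Ms4a4c also occur in another Ms4a gene, mostly Ms4a4b. The share was 6.10% for Ms4a6c and 3.95% for Ms4a6b, and 0 for Ms4a4a, Ms4a6d and Ms4a7. Reads from such stretches could be lost or split between neighbours.

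After hashtag calls and cell filters, 7217 and 7470 cells remained, with a median of 2312 UMIs per cell in CD43+ monocytes of dataset 2 up to 14279 in intermediate LysoDCs. The labels were checked against marker genes as summed CPM, UMIs per 1000000 UMIs of the population. The 8 Ly6C-high monocyte markers summed to 6935 and 5657 CPM in Ly6C+ monocytes and to at most 1598 elsewhere, and the 8 CD43-high markers to 3599 and 4002 CPM in CD43+ monocytes and at most 500.2 elsewhere. The 9 LysoDC markers summed to 57560 to 79180 CPM in LysoDCs, against 5412 to 45684 in blood cells and cDC2s. The 8 cDC2 markers did not single out the sorted cDC2s, with 679.9 and 600.3 CPM there, 650.3 in the LysoDCs of dataset 1 and 958.2 and 1263 in DN blood cells. The names of the cDC2 groups are therefore those of the sort gates only. The complement gene C1qa, made by LysoDCs, stood at 454 to 526 CPM in the blood cells of dataset 1 and 31.55 to 84.3 CPM in those of dataset 2, against 8726 and 7806 CPM in LysoDCs. The part of free RNA from LysoDCs in low levels of the Ms4a genes in blood cells was not tested. The datasets share 37 barcodes, 13 of them among the cells used.

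Ms4a7, used as a macrophage marker, was highest in LysoDCs. In dataset 1 follicular LysoDCs had 344 CPM, immature ones 155, intermediate ones 149.8 and mature ones 124. In dataset 2 the LysoDCs kept, not divided by subset, had 160.1 CPM. Ly6C+ monocytes had 37.9 and 32.3 CPM, DN blood cells 30.9 and 8.03 CPM, CD43+ monocytes 21.2 and 6.93 CPM, and immature and maturing cDC2s 12.0 and 23.2 CPM. Every LysoDC sum lay above every blood and cDC2 sum.

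Ms4a4a, whose protein partners Dectin-1 in macrophages, was also highest in LysoDCs, though by less over monocytes. It stood at 34.7, 32.0, 24.7 and 17.0 CPM in follicular, immature, intermediate and mature LysoDCs and at 19.8 CPM in the LysoDCs of dataset 2. Ly6C+ monocytes had 16.3 and 5.39 CPM, CD43+ monocytes 15.8 and 8.47 CPM, and DN blood cells 6.78 and 0.556 CPM. Immature cDC2s had 0.942 CPM, from 7 UMIs in 970 cells, and maturing cDC2s 8.90 CPM. Mature LysoDCs and both monocyte types of dataset 1 could not be separated, as their counting intervals overlapped.

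Ms4a6b was high in LysoDCs and Ly6C+ monocytes alike. It measured 582, 601, 559 and 457 CPM in the 4 LysoDC subsets in the order above and 647 CPM in dataset 2, beside 588 and 527 CPM in Ly6C+ monocytes. DN blood cells were lower at 368.5 and 284 CPM. Maturing cDC2s had 247 CPM, immature cDC2s 149.9 CPM, and CD43+ monocytes 156 and 80.9 CPM. The intervals of immature and follicular LysoDCs and Ly6C+ monocytes overlapped in dataset 1.

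Ms4a6c was present in every population and was highest in Ly6C+ monocytes, at 1643 and 1477 CPM. LysoDC subsets held 1069, 1055, 952 and 843 CPM, and the LysoDCs of dataset 2 held 1062 CPM. DN blood cells had 1132 CPM in dataset 1, above every LysoDC subset, and 971 CPM in dataset 2, below the LysoDCs there. CD43+ monocytes had 666 and 639 CPM and the cDC2s 548 CPM (immature) and 537.5 CPM (maturing), the lowest values of this gene.

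Ms4a6d followed Ms4a6b more than Ms4a6c. LysoDC subsets had 137, 132, 174 and 165 CPM, the LysoDCs of dataset 2 had 138 CPM, and Ly6C+ monocytes had 132 and 128 CPM. All other groups lay well under these, with DN blood cells at 44.3 and 33.1 CPM, CD43+ monocytes at 26.2 and 17.0 CPM and immature and maturing cDC2s at 16.2 and 23.7 CPM.

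Ms4a4c was found mostly in blood cells. Ly6C+ monocytes contained 615 and 591 CPM, DN blood cells 359 and 381 CPM and CD43+ monocytes 58.9 and 33.9 CPM. In LysoDCs it stood at 10.4, 3.87, 4.29 and 6.05 CPM in the 4 subsets and 4.10 CPM in dataset 2, and in immature and maturing cDC2s at 18.2 and 33.1 CPM. No blood sum overlapped any LysoDC sum.

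**Figure D1:**
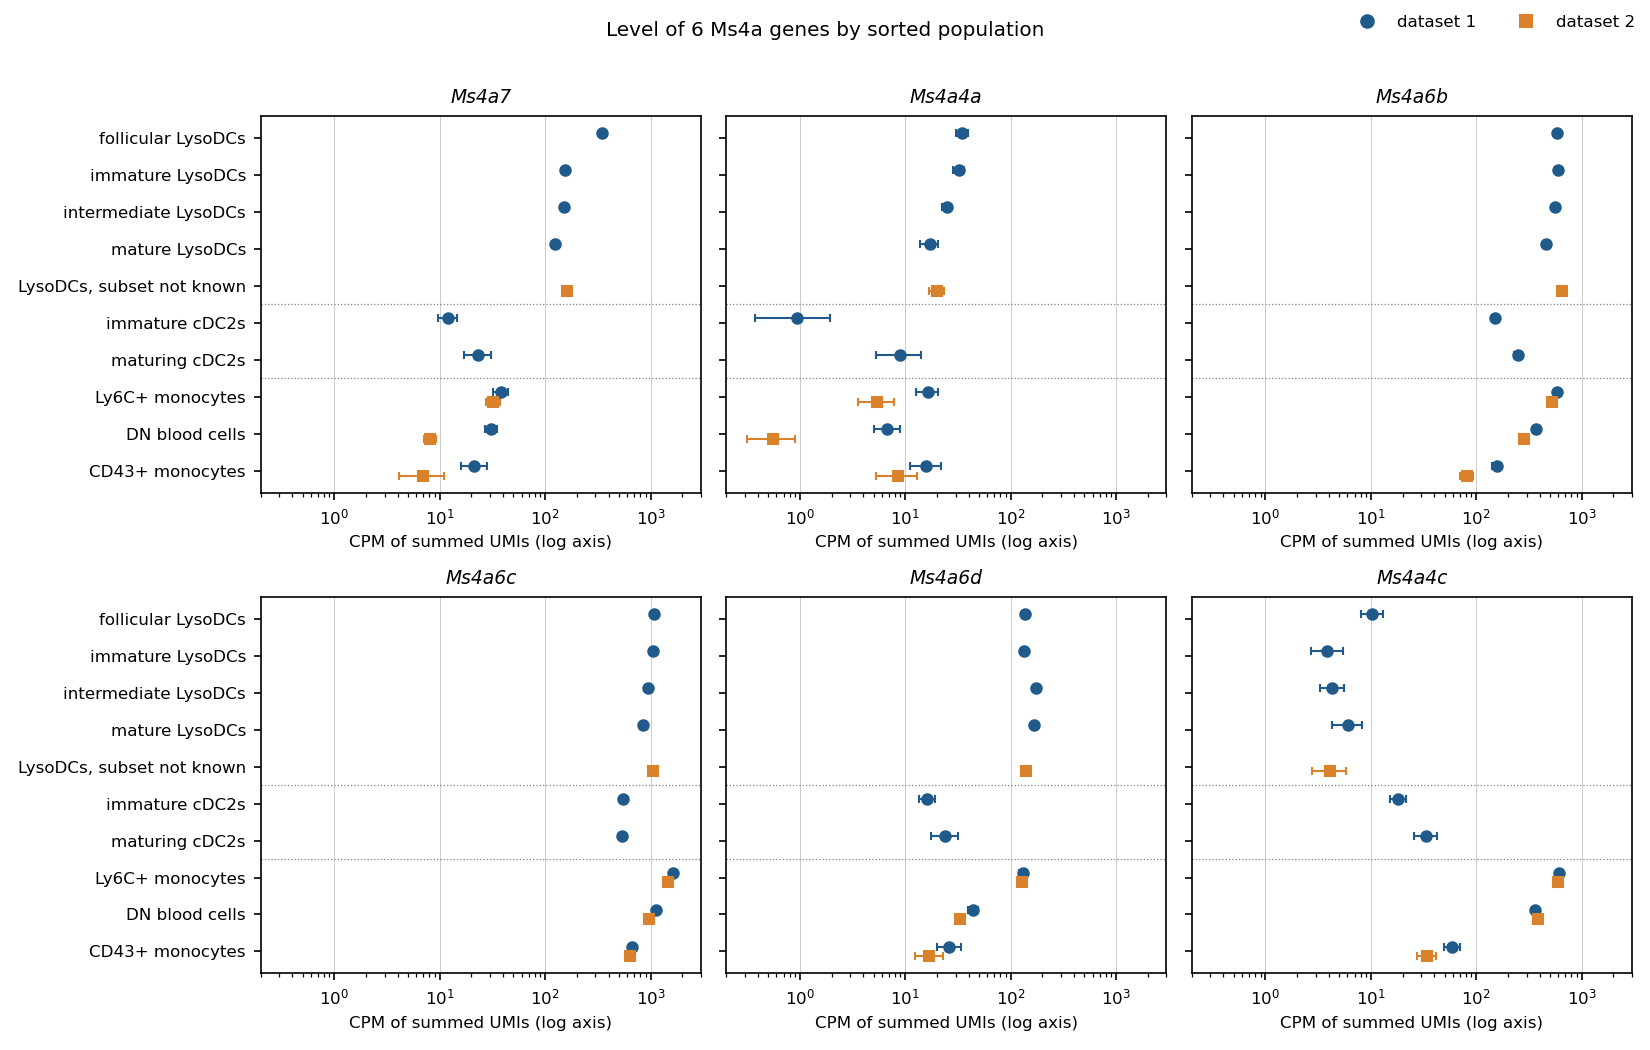
Each panel plots 1 gene, with CPM of summed UMIs on a log axis across and the sorted populations down the side. Points are 1 pool each (circles dataset 1, squares dataset 2) and bars are exact Poisson 95% intervals, which cover counting error only. Ms4a7 lies at 124 to 344 CPM in LysoDCs and at most 37.9 CPM elsewhere, while Ms4a4c lies at most at 10.4 CPM in LysoDCs and at 33.9 to 615 CPM in blood.

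Populations held by both datasets were compared with edgeR's quasi-likelihood test on the 8 sums of cells, with dataset as a block. The p-values were adjusted by the Benjamini-Hochberg method over 11458 genes. Each value rests on n = 2 pools per population and a spread shared by all populations, and the 6 comparisons use the same sums repeatedly. Log2 differences are first population minus second, ± SE. All 6 Ms4a genes passed the filter on low counts.

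LysoDCs differed from Ly6C+ monocytes in 3 of the 6 genes, with 1 higher and 2 lower, while 50.7% of all tested genes passed this comparison. Ms4a7 was higher in LysoDCs by 2.36 ± 0.50 (5.13-fold, adjusted p = 0.0194), with ratios of 4.79 and 4.95 within datasets 1 and 2. Ms4a4c was lower by -6.84 ± 0.28 (114-fold, adjusted p = 1.51e-07), or 110 and 144-fold within the datasets. Ms4a6c was lower by -0.53 ± 0.14 (1.44-fold, adjusted p = 0.00978).

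The other three did not pass. Ms4a6b and Ms4a6d differed by 0.19 ± 0.22 (adjusted p = 0.495) and 0.25 ± 0.15 (adjusted p = 0.192), less than 2 SE each. Ms4a4a was at 1.36 ± 0.66 (adjusted p = 0.159), although both LysoDC sums exceeded both Ly6C+ sums. The median over the 6 genes was 0.22 and that of all tested genes 0.0035 on the log2 scale. The scaling of the sums centres the latter, and without regard to sign these medians were 0.946 and 0.601. The call for Ms4a7 was lost when either Ly6C+ sum, the dataset 2 LysoDC sum or the dataset 1 CD43+ sum was left out (adjusted p = 0.0525 to 0.119), and that for Ms4a6c without either Ly6C+ sum (0.0535 and 0.0596). Without a DN blood sum, Ms4a4a passed (adjusted p = 5.96e-05 and 6.51e-05).

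Against CD43+ monocytes, LysoDCs were higher in 4 genes and lower in 1 of 6, beside 54.9% of all genes passing. Ms4a7 was 16.0-fold higher (4.00 ± 0.60, adjusted p = 0.00596), with ratios of 8.58 and 23.1 within datasets 1 and 2. Ms4a6d was 8.38-fold higher (3.07 ± 0.18, adjusted p = 3.54e-07), Ms4a6b 6.36-fold (2.67 ± 0.24, adjusted p = 1.71e-05) and Ms4a6c 1.91-fold (0.93 ± 0.14, adjusted p = 0.000298). Ms4a4c was 7.50-fold lower in LysoDCs (-2.91 ± 0.27, adjusted p = 1.77e-05). Ms4a4a did not pass, at 1.32 ± 0.71 (adjusted p = 0.188), though its sums did not overlap.

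The median log2 difference was 1.99 over the 6 genes and 0.0273 over all genes tested, where scaling centres the latter. Without regard to sign these medians were 2.79 and 0.716. TMM scaling differed from library totals by -0.284 on the log2 scale here (LysoDCs minus CD43+ monocytes), and without scaling factors 36.2% instead of 51.8% of called genes were higher in LysoDCs. The 5 calls above kept their sign and passed without the factors too. Ms4a7 missed the threshold without either CD43+ sum (adjusted p = 0.0513 and 0.061), and Ms4a4a passed without either DN sum (0.000217 and 0.000233).

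Against DN blood cells, again 4 genes were higher in LysoDCs and 1 was lower, beside 52.1% of all genes. Ms4a7 was 11.04-fold higher (3.46 ± 0.52, adjusted p = 0.00603), Ms4a4a 10.1-fold (3.34 ± 0.69, adjusted p = 0.0148), Ms4a6d 4.01-fold (2.003 ± 0.15, adjusted p = 2.02e-06) and Ms4a6b 1.96-fold (0.97 ± 0.22, adjusted p = 0.00546). Ms4a4c was 71.3-fold lower (-6.16 ± 0.28, adjusted p = 2.11e-07). Ms4a6c was at 0.03 ± 0.14 (adjusted p = 0.897), 1.15-fold lower within dataset 1 and 1.09-fold higher within dataset 2.

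The size of the Ms4a4a and Ms4a7 differences varied between datasets, from 3.98 to 35.6-fold and from 5.88 to 19.9-fold. The larger DN levels of both genes were in dataset 1, where DN blood cells also had 459 CPM of C1qa against 66.8 CPM in dataset 2. Per 100 UMIs of C1qa those DN cells had 6.73 UMIs of Ms4a7 and 1.48 of Ms4a4a, whereas the LysoDCs of dataset 1 had 2.08 and 0.309. The part of free RNA in these DN levels was not tested. The Ms4a4a call was lost without the dataset block (adjusted p = 0.0504) and without any 1 of the Ly6C+ or CD43+ sums (0.0525 to 0.0717), and that of Ms4a6b without the dataset 2 LysoDC sum (0.0584).

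Among blood cells, CD43+ monocytes were lower than Ly6C+ monocytes in 4 genes and higher in 0 of 6, beside 27.9% of all genes. Ms4a4c showed the widest gap, 15.2-fold (-3.93 ± 0.25, adjusted p = 1.37e-05), followed by Ms4a6d at 7.06-fold (-2.82 ± 0.18, adjusted p = 6e-06), Ms4a6b at 5.56-fold (-2.47 ± 0.24, adjusted p = 0.000122) and Ms4a6c at 2.75-fold (-1.46 ± 0.15, adjusted p = 6.75e-05). The median was -2.06 over the 6 genes and 0.00632 over all genes, where TMM scaling centres the latter. Without regard to sign these medians were 2.06 and 0.478. Ms4a7 was at -1.64 ± 0.64 (adjusted p = 0.139) and Ms4a4a at 0.04 ± 0.80 (adjusted p = 0.976). Ms4a7 passed with DESeq2 (adjusted p = 0.00315) and without either DN sum (0.000617 and 0.000675). Without scaling factors 67.4% rather than 48.3% of called genes were higher in CD43+ monocytes, and the 4 Ms4a calls stayed lower and passed.

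DN blood cells lay between both monocyte types for Ms4a4c, Ms4a6b, Ms4a6c and Ms4a6d. Against Ly6C+ monocytes they were lower in 3 genes and higher in 0 of 6, beside 14.8% of all genes. Ms4a6d was 3.38-fold lower (-1.76 ± 0.16, adjusted p = 0.000194). Ms4a6b was 1.71-fold lower (-0.77 ± 0.22, adjusted p = 0.0486) and Ms4a6c 1.47-fold lower (-0.55 ± 0.14, adjusted p = 0.026).

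The last 2 calls were close to the threshold, and both were lost without the dataset block (adjusted p = 0.106 and 0.0618) and when either Ly6C+ or either DN sum was left out (0.0568 to 0.356). Ms4a6c was also lost without either CD43+ sum (0.0516 and 0.0519). Ms4a6b was also lost with library totals (0.0752) and with k-means hashtag calls (0.0563). Ms4a4c was 1.60-fold lower and just missed the threshold (-0.68 ± 0.21, adjusted p = 0.0624), which it passed with RLE factors (0.0489), with library totals (0.0341), without the low-count filter (0.00187), at 2000 UMIs per cell (0.0441), with k-means hashtag calls (0.0347), without either CD43+ sum (0.0307 and 0.0323) and without the dataset 2 DN sum (0.0184). Ms4a4a and Ms4a7 did not pass at -1.98 ± 0.77 and -1.11 ± 0.52 (adjusted p = 0.182 and 0.261). Both passed without the dataset 1 DN sum (adjusted p = 6.89e-07 and 0.000275), and Ms4a4a passed with DESeq2 (0.032).

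Against CD43+ monocytes, DN blood cells were higher in 4 genes and lower in 0 of 6, beside 33.3% of all genes. Ms4a4c was 9.50-fold higher (3.25 ± 0.24, adjusted p = 2.73e-05), Ms4a6b 3.25-fold (1.70 ± 0.24, adjusted p = 0.000652), Ms4a6d 2.09-fold (1.06 ± 0.18, adjusted p = 0.00148) and Ms4a6c 1.87-fold (0.90 ± 0.14, adjusted p = 0.00087). Ms4a7 was at 0.54 ± 0.63 (adjusted p = 0.576) and passed without the dataset 2 DN sum (1.16, adjusted p = 0.0202), whereas without the dataset 1 DN sum it had the other sign (-0.29, adjusted p = 0.552). Ms4a4a was at -2.02 ± 0.84 (adjusted p = 0.143) and passed with DESeq2 (0.011) and without either DN sum (7.71e-07 and 0.044). Without scaling factors 32.9% instead of 51.3% of called genes were higher in DN blood cells, while the 4 Ms4a calls kept their sign and passed. In dataset 2 these blood populations also came from different libraries, and a difference between libraries cannot be told apart there from one between populations; in dataset 1 all shared 1 library, and each called gene had the same direction within it.

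**Figure D2:**
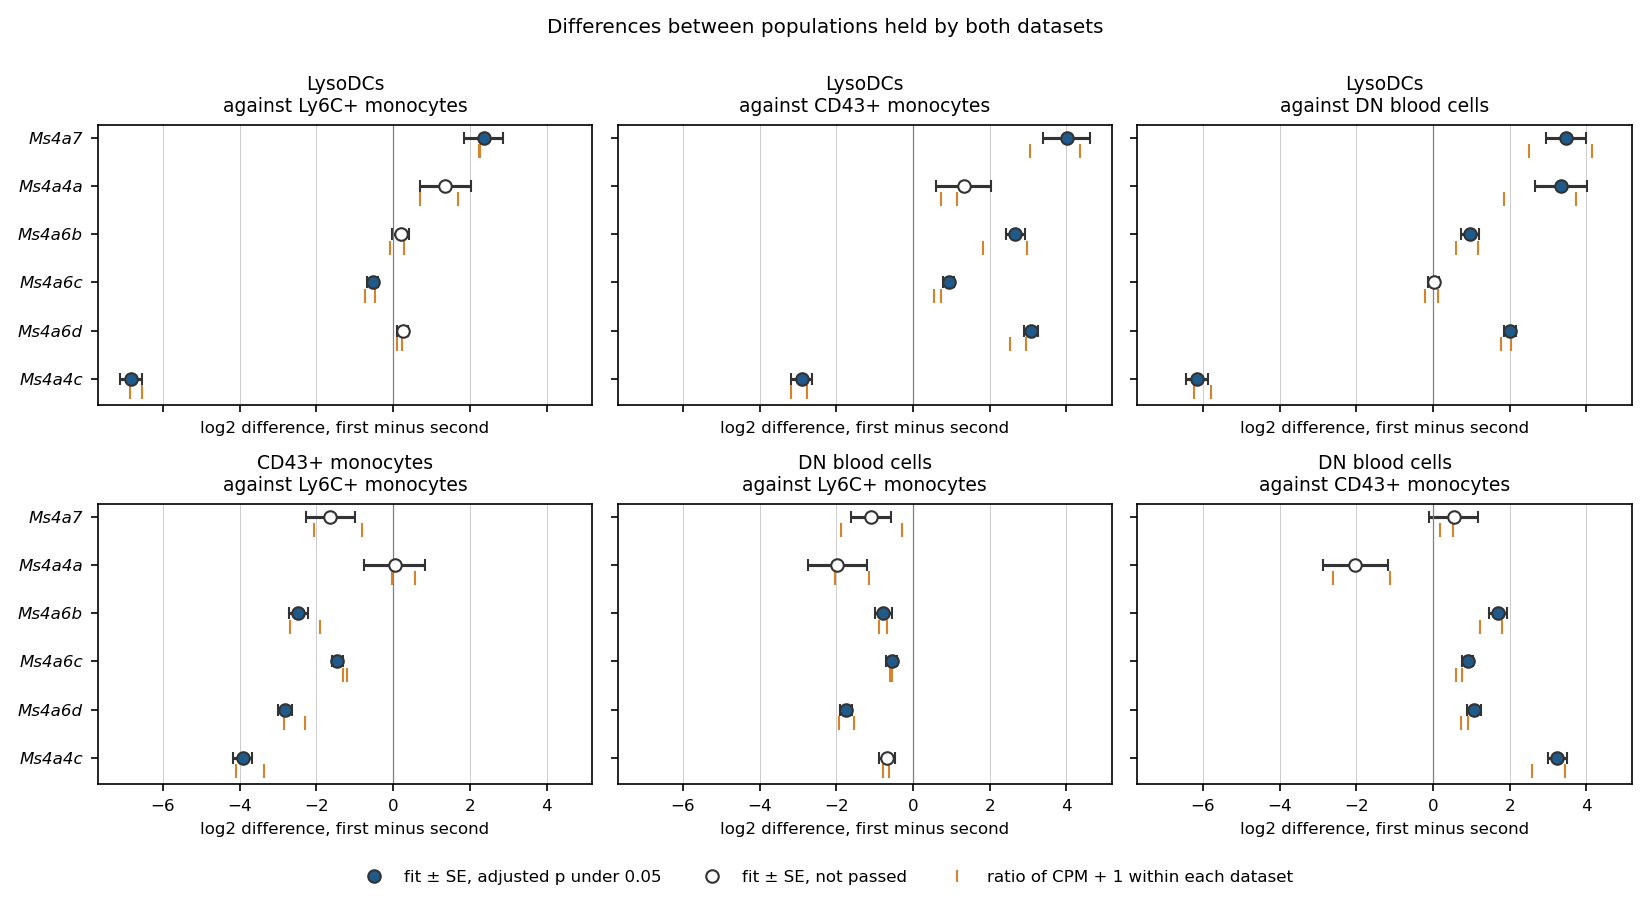
Each panel is 1 comparison, with the log2 difference (first population minus second) across and the 6 genes down the side. Circles are edgeR estimates ± SE over 2 datasets (filled where the adjusted p was under 0.05) and ticks are log2 ratios of CPM + 1 within each dataset. Ms4a4c stands at -6.84 and -6.16 against Ly6C+ monocytes and DN blood cells, where Ms4a7 stands at 2.36 and 3.46.

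The LysoDC subsets had 1 pool each and therefore no test. Among them Ms4a7 was highest in follicular LysoDCs, with a counting interval that overlapped that of no other subset. Follicular LysoDCs had 2.21 times the level of immature LysoDCs (95% counting interval 2.07 to 2.37) and 2.76 times that of mature LysoDCs (2.54 to 3.00). Ms4a4a declined from follicular to mature LysoDCs by a ratio of 2.04 (1.61 to 2.60), and its follicular and immature levels had a ratio of 1.08 (0.905 to 1.30). Ms4a6b and Ms4a6c differed little between these subsets, with follicular to immature ratios of 0.969 (0.929 to 1.01) and 1.01 (0.982 to 1.05), and both were 1.27 times higher in follicular than in mature LysoDCs. Ms4a6d ran the other way, with an intermediate to immature ratio of 1.31 (1.22 to 1.41) and a follicular to mature ratio of 0.831 (0.758 to 0.911). Ms4a4c was 2.68 times higher in follicular than in immature LysoDCs (1.74 to 4.17), from 66 and 34 UMIs. Its follicular to mature ratio was 1.71 (1.13 to 2.64). With k-means hashtag calls its follicular level was 6.17 CPM instead of 10.4.

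Dataset 2 had 4 LysoDC hashtags not tied to subsets, of which 3 marked 143 to 321 cells and the other marked 4. Ms4a7 stood at 142, 165.5 and 177 CPM in these 3, against 344 CPM in follicular LysoDCs of dataset 1. Their Ms4a6c levels were 1064, 1052 and 1081 CPM, a narrower relative range. The subset marked by the hashtag with 4 cells is not known. Whether dataset 2 repeats the follicular level therefore cannot be told. HTODemux kept 681 LysoDCs there, while 2919 had a hashtag with at least 80% of the hashtag UMIs. In those 2919 cells Ms4a7 stood at 172.7 CPM.

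The cDC2s of dataset 1 held less of 5 of the genes than LysoDCs. LysoDCs had 28.6 times the Ms4a4a level of immature cDC2s (13.8 to 71.4), 15.2 times the Ms4a7 level (12.3 to 18.9), 9.63 times the Ms4a6d level (8.03 to 11.6), 3.71 times the Ms4a6b level (3.49 to 3.94) and 1.79 times the Ms4a6c level (1.73 to 1.85). Against maturing cDC2s the ratios were 3.03 for Ms4a4a (1.91 to 5.13), 7.81 for Ms4a7 (5.87 to 10.6), 6.55 for Ms4a6d (4.93 to 8.89), 2.25 for Ms4a6b (2.06 to 2.46) and 1.82 for Ms4a6c (1.72 to 1.94), smaller than against immature cDC2s except for Ms4a6c. Ms4a4c had the reverse order, with 0.307 times the level of immature and 0.168 times the level of maturing cDC2s (0.245 to 0.385 and 0.127 to 0.226).

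Maturing exceeded immature cDC2s by a ratio of 9.45 for Ms4a4a (3.77 to 26.8), 1.94 for Ms4a7 (1.33 to 2.79), 1.82 for Ms4a4c (1.34 to 2.46), 1.65 for Ms4a6b (1.48 to 1.83) and 1.47 for Ms4a6d (1.03 to 2.07), but not for Ms4a6c, at 0.981 (0.917 to 1.05). C1qa also stood higher in maturing than in immature cDC2s, at 1514 and 326 CPM, and its part in these ratios was not tested. Per 100 C1qa UMIs, maturing cDC2s and LysoDCs had 1.535 and 2.08 UMIs of Ms4a7, 1.57 and 1.78 of Ms4a6d, 0.588 and 0.309 of Ms4a4a, 16.3 and 6.37 of Ms4a6b, and 2.19 and 0.0639 of Ms4a4c. The cDC2 levels also depended on how hashtags were called: in the 38 immature cDC2s whose hashtag held at least 80% of the hashtag UMIs, Ms4a7 stood at 48.2 CPM instead of 12.0, Ms4a4c at 71.4 instead of 18.2, Ms4a6d at 58.9 instead of 16.2, Ms4a6b at 246.5 instead of 149.9 and Ms4a4a at 8.93 instead of 0.942.

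In single cells the share with at least 1 UMI was also highest in LysoDCs for Ms4a7. In dataset 1 Ms4a7 was found in 85.2% of follicular LysoDCs (exact 95% interval 82.1% to 87.9%, median depth 10551 UMIs), 68.7% of immature, 68.4% of intermediate and 56.9% of mature LysoDCs, and in 60.8% of LysoDCs of dataset 2. Ly6C+ monocytes had shares of 14.2% and 13.7%, DN blood cells 11.1% and 3.44%, CD43+ monocytes 7.39% and 1.79% (median depths 2963 and 2312 UMIs) and immature and maturing cDC2s 8.35% and 14.6% (7387.5 and 7480 UMIs). The unthinned shares of cDC2s and blood cells were not in the order of their CPM. With each cell thinned to 1000 UMIs, Ms4a7 remained in 28.2% of follicular LysoDCs and 11.65% to 15.1% of the other subsets, and in 0.583% to 3.46% of the blood populations. The gap is therefore present at equal depth.

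Ms4a4c was found in 79.1% and 85.1% of Ly6C+ monocytes and in 69.4% and 72.0% of DN blood cells, against 14.8% and 6.83% of CD43+ monocytes and 3.97% to 5.96% of the LysoDC subsets. At 1000 UMIs the shares were 40.8% and 39.7%, 28.25% and 27.6%, 3.77% and 2.63%, and 0.153% to 0.712%. LysoDCs are the deepest cells here, so this low share goes with the highest depth. The transcript of the monocyte marker Ly6c2 was at 2.06 CPM in the LysoDCs of dataset 1 and 0.137 CPM in those of dataset 2, beside 1288 and 1059 CPM in Ly6C+ monocytes.

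Ms4a6c was the most widely detected of the 6, in 70.7% to 98.8% of cells of every population and in 32.95% to 78.8% at 1000 UMIs, where it was lowest in maturing cDC2s and highest in Ly6C+ monocytes of dataset 1. Ms4a6b ranged from 7.46% in CD43+ monocytes of dataset 2 to 45.7% in follicular LysoDCs at equal depth. Ms4a6d in LysoDCs and Ly6C+ monocytes had similar thinned shares of 11.8% to 15.2% and 11.2% to 11.3%, although its shares over all UMIs were 61.8% to 82.0% and 35.7% to 42.4%. The wide gap in the unthinned shares of Ms4a6d goes with the depth of the cells. Ms4a4a was sparse everywhere, with at most 33.4% of cells in immature LysoDCs and 0.322% in DN blood cells of dataset 2. In immature cDC2s it was found in 7 of 970 cells (0.722%).

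**Figure D3:**
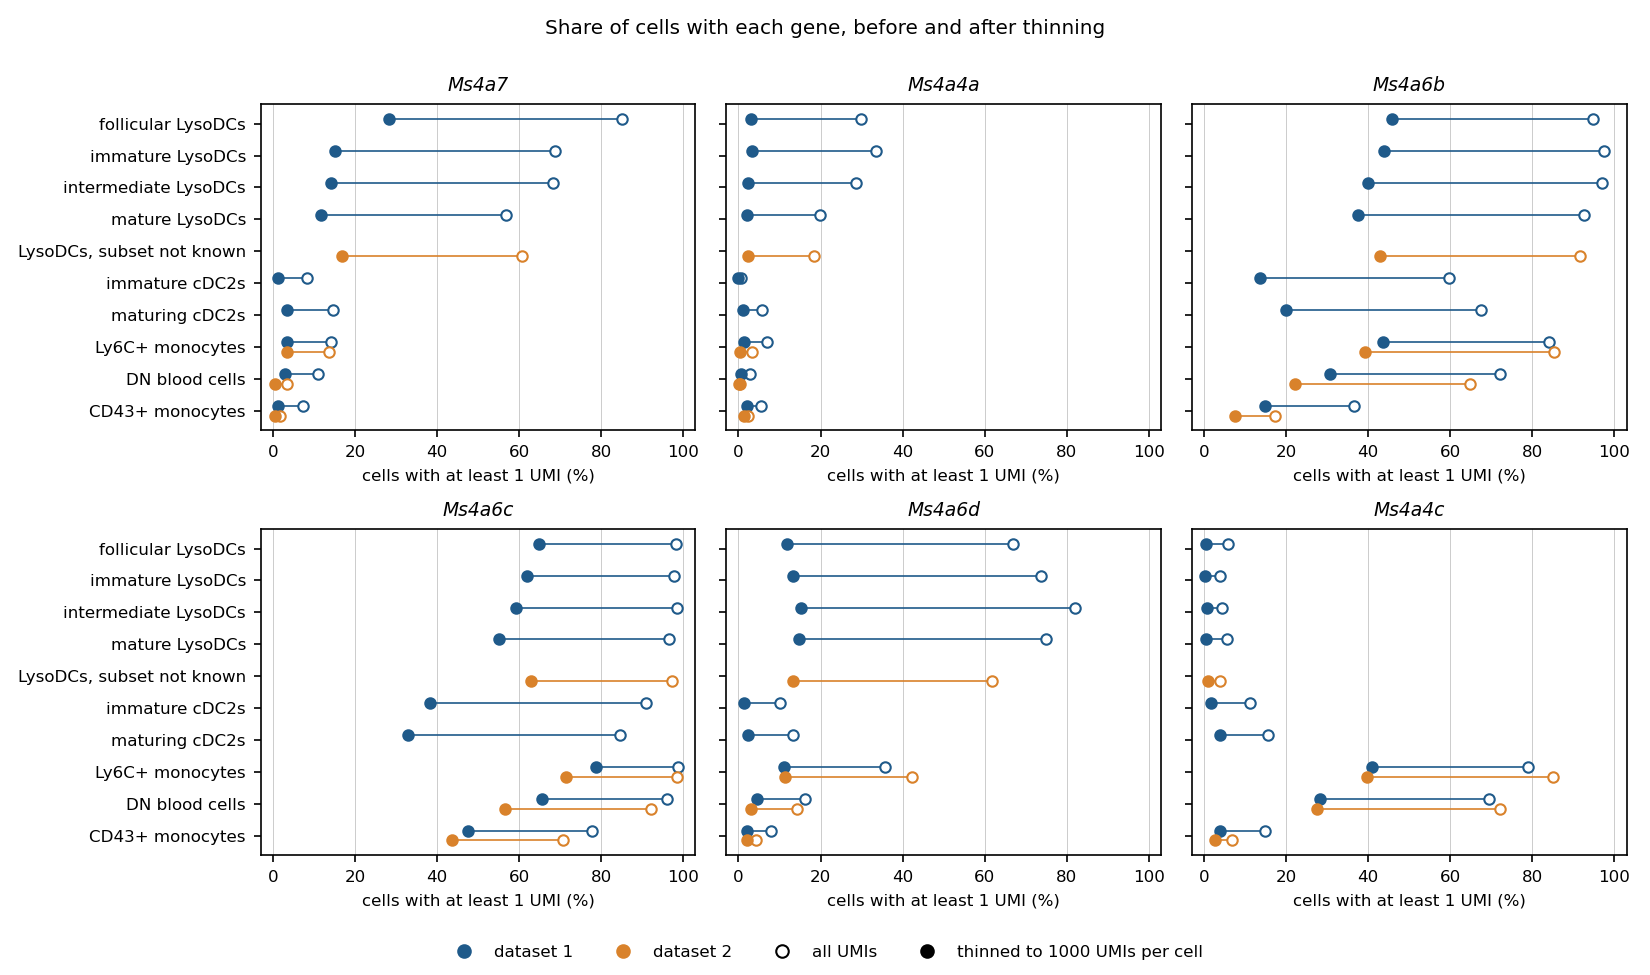
Each panel plots 1 gene, with the percentage of cells that hold at least 1 UMI across and the populations down the side. Open circles use all UMIs and filled circles use cells thinned to 1000 UMIs. Ms4a6d falls from 82.0% to 15.2% in intermediate LysoDCs, close to the 11.2% of Ly6C+ monocytes in dataset 1, while Ms4a7 stays apart at 28.2% in follicular LysoDCs.

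Together the 6 genes summed to 3033 and 2761 CPM in Ly6C+ monocytes, 1613 to 2178 CPM in LysoDC subsets, 2032 CPM in the LysoDCs of dataset 2, 1941 and 1678 CPM in DN blood cells, 944 and 786 CPM in CD43+ monocytes and 745 and 874 CPM in immature and maturing cDC2s. Over all UMIs, LysoDC subsets of dataset 1, the deepest cells, had a median of 4 of the 6 genes in a cell, LysoDCs of dataset 2, Ly6C+ monocytes and DN blood cells 3, cDC2s 2 and CD43+ monocytes 1. With thinning to 1000 UMIs the mean number per cell was 1.79 and 1.66 in Ly6C+ monocytes and 1.215 to 1.54 in LysoDC subsets, so Ly6C+ monocytes had both the highest sum and the most of these genes per cell at equal depth. No Ms4a gene of the 6 was seen in 24.9% of CD43+ monocytes of dataset 2 over all UMIs and in 51.2% at 1000 UMIs.

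Within populations, the share of thinned cells with each Ms4a gene was compared between cells with and without a UMI of a partner gene. There were 13 partners in all, the Ms4a genes themselves among them. A partner was used only where at least 20 cells held it, so partners differed between populations and datasets. Of 391 such comparisons of shares 338 had overlapping 95% intervals, 49 were higher and 4 lower with the partner. Both datasets could be compared for 187 combinations of gene, partner and population, and 8 were apart in the same direction in both. These are descriptions of cells within a pool and carry no test. Isg15, an interferon-induced gene, was the partner in 4 of the 8, and the pair of Ms4a4c and Ms4a6b was counted in both directions. The 187 combinations were not counted by partner, so whether Isg15 stood out among the partners was not tested.

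In Ly6C+ monocytes Ms4a4c was found in 67.9% of cells with Isg15 and 36.3% without in dataset 1, and in 63.2% and 36.8% in dataset 2. In DN blood cells the shares for Ms4a4c were 42.03% with and 27.0% without Isg15 in dataset 1 and 43.8% and 26.4% in dataset 2. Ms4a6b in DN blood cells was at 45.7% and 29.4%, and at 34.6% and 21.1%. Ms4a6c in DN blood cells was at 81.9% and 64.2%, and at 71.5% and 55.5%. In Ly6C+ monocytes of dataset 1 Ms4a6c was at 79.85% with and 78.7% without Isg15, with overlapping intervals. Ms4a6b was higher there with Isg15 (56.7% against 41.4%), but not in both datasets. In LysoDCs of dataset 1 the intervals overlapped for every Ms4a gene followed. Ms4a7 and Ms4a4a had overlapping intervals for Isg15 in each population and dataset with enough cells.

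Ms4a4c in Ly6C+ monocytes was also higher with Ly6c2 (47.3% against 33.3% and 45.4% against 34.6%). It went with Ms4a6b there, at 46.1% against 36.8% and 46.9% against 35.1%. In LysoDCs Ms4a6b was found in 42.4% of cells with C1qa against 18.2% of 66 cells without, and in 43.7% against 15.8% of 19 cells, the latter a very small group. Those 66 cells were also lower in Ms4a6c (34.85% against 61.2%), Ms4a6d (3.03% against 14.1%) and Ms4a7 (3.03% against 17.5%). They were higher in Ms4a4c (4.545% against 0.378%), and the Ms4a4a intervals overlapped. Whether these cells without C1qa were LysoDCs was not tested.

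**Figure D4:**
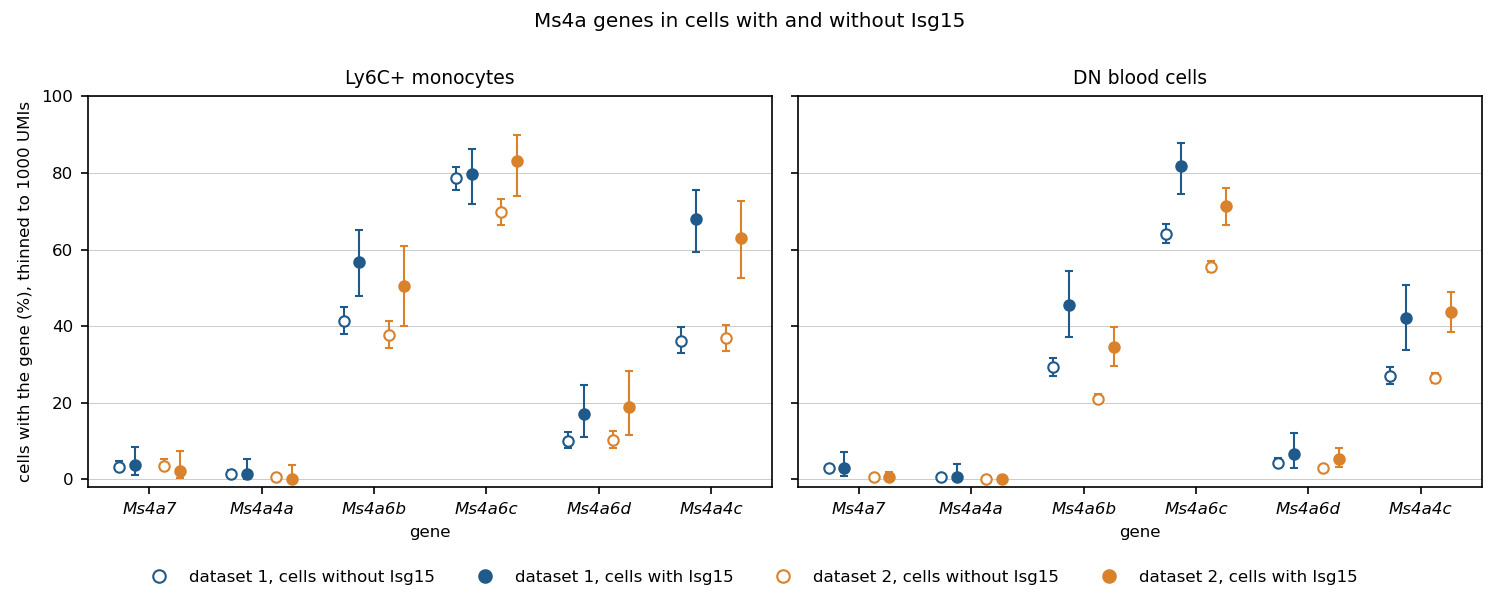
The 2 panels plot the percentage of Ly6C+ monocytes and DN blood cells with each gene, split by whether the cell held an Isg15 UMI, after thinning to 1000 UMIs. Bars are exact 95% intervals over cells of 1 pool, and colours are datasets. Ms4a4c is at 67.9% with and 36.3% without Isg15 in Ly6C+ monocytes of dataset 1, and Ms4a7 overlaps throughout.

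Across the 13 sums (9 of dataset 1 and 4 of dataset 2), levels on the log2(CPM + 1) scale were correlated as a description only, since the sums share 2 datasets and the LysoDC subsets resemble each other. Ms4a6b and Ms4a6d ran closest (Pearson r = 0.921), followed by Ms4a6d and Ms4a7 (0.849) and Ms4a4a and Ms4a7 (0.803). Ms4a6b and Ms4a6c, whose upstream windows share the run printed above, had 0.766. Ms4a4c was negative with Ms4a7 (-0.599) and Ms4a4a (-0.521).

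Among 4142 other genes, those most like Ms4a4c were Stxbp6 (r = 0.989), the IgG receptor gene Fcgr1 (0.976) and Cd300lg (0.975). Ms4a6c was most like Ifit2 (0.958), B3gnt8 (0.957) and Rsad2 (0.955), and Ifit2 and Rsad2 are interferon-induced antiviral genes. Ms4a6b was most like Gas7 (0.982), the thromboxane synthase gene Tbxas1 (0.954) and Tmem205 (0.947). Ms4a6d was most like Myof (0.962), the annexin gene Anxa5 (0.951) and again Gas7 (0.946).

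For Ms4a7 the closest were Plaat3 (0.981), Tex264 (0.976) and the kinase gene Camk1 (0.975). Ms4a4a was closest to Fam20c (0.943), Gda (0.942) and the lysosomal sialidase gene Neu1 (0.941).

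Of 15 relatives, the 13 other Ms4a genes and the distantly related membrane protein genes Tmem176a and Tmem176b, 5 passed the filter on low counts and 4 reached 20 CPM in any population. Among the 5 tested, 2 were higher and 2 lower in LysoDCs than in Ly6C+ monocytes, beside 50.7% of all tested genes passing. In LysoDCs 2 were higher and 1 lower than in CD43+ monocytes (54.9% of all genes). Compared with DN blood cells 0 were higher and 2 lower (52.1%). CD43+ monocytes were lower in 3 and higher in 0 than Ly6C+ monocytes (27.9%). DN blood cells were lower in 1 and higher in 0 than Ly6C+ monocytes (14.8%). They were higher in 3 and lower in 0 than CD43+ monocytes (33.3%).

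Ms4a4b, known from T cells and next to Ms4a4c on the chromosome, had its distribution too, with 52.9 and 45.2 CPM in Ly6C+ monocytes, 42.6 and 35.7 CPM in DN blood cells, 9.96 and 5.01 CPM in CD43+ monocytes and 2.23 and 1.501 CPM in LysoDCs. It was 23.5-fold lower in LysoDCs than in Ly6C+ monocytes (-4.55 ± 0.22, adjusted p = 1.17e-07). The 10 T and NK cell markers summed to 1.70 and 1.15 CPM in Ly6C+ monocytes, with 6 and 7 of the 10 at 0. Of the 50-base words near the 3′ end of Ms4a4c, 127 also occur somewhere in Ms4a4b transcripts, at positions that were not examined. Whether part of the Ms4a4b count belongs to Ms4a4c was not tested.

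Ms4a8a was found in Ly6C+ monocytes at 84.2 and 96.2 CPM and in DN blood cells at 24.0 and 7.92 CPM, and at most at 3.47 CPM in CD43+ monocytes and LysoDCs. It was 6.39-fold lower in DN blood cells than in Ly6C+ monocytes (-2.68 ± 0.50, adjusted p = 0.0334). Tmem176a had 2336 and 2161 CPM in LysoDCs, 331 and 288 CPM in Ly6C+ monocytes, 649 and 683 CPM in DN blood cells and 161 and 31.6 CPM in CD43+ monocytes. It was 7.66-fold higher in LysoDCs than in Ly6C+ monocytes (2.94 ± 0.70, adjusted p = 0.032), and Tmem176b was 3.85-fold higher (1.94 ± 0.53, adjusted p = 0.038). Neither passed against DN blood cells (adjusted p = 0.0994 and 0.143).

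The lineage genes of the family were low or not seen. Ms4a1 was at most at 12.9 CPM, in maturing cDC2s, with 2.14 and 0.4095 CPM in LysoDCs, where the 8 B cell markers summed to 221.7 and 204.7 CPM. Ms4a2 had 0 UMIs in every sum and Ms4a3 at most 0.163 CPM, and Fcer1a, which encodes the partner chain of Ms4a2, was also at 0. The summed basophil and mast cell markers were at most 119.8 CPM, in immature cDC2s.

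Genes that act with Ms4a proteins in receptor signalling, the adaptors Tyrobp and Fcer1g, the kinase Syk, and Trem2, made with Fcer1a a list of 5 genes, of which 4 were tested. Clec7a, which encodes Dectin-1, was not analysed here. In LysoDCs 3 were lower and 0 higher than in Ly6C+ monocytes, beside 50.7% of all tested genes passing. Compared with CD43+ monocytes, 3 were lower and 0 higher (54.9% of all genes). Compared with DN blood cells, 2 were lower and 1 higher (52.1%). Fcer1g stood at 1109 and 987 CPM in LysoDCs and 3132 and 2946 CPM in Ly6C+ monocytes (-1.46 ± 0.16, adjusted p = 2.44e-05), and Tyrobp at 2576 and 2329 against 4962 and 4424 CPM (-0.86 ± 0.15, adjusted p = 0.000798). Trem2, a lipid-sensing receptor gene of macrophages, had 81.1 and 115 CPM in Ly6C+ monocytes and 0.0845 and 0 CPM in LysoDCs (adjusted p = 0.0107). Syk was higher in LysoDCs than in DN blood cells, at 217 and 204 against 176 and 116 CPM (0.62 ± 0.14, adjusted p = 0.00422). Among the blood comparisons, CD43+ and Ly6C+ monocytes differed in 0 of the 4 by edgeR, beside 27.9% of all genes passing. Trem2 (adjusted p = 0.104) and Tyrobp (0.0858) were estimated lower in CD43+ monocytes and Syk (0.105) higher, and none passed. For Tyrobp the sums of these populations overlapped. DN blood cells were lower than Ly6C+ monocytes in 1 (14.8% of all genes) and lower than CD43+ monocytes in 2 (33.3%).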

How the data were processed

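UMIs of genes and of hashtags were rows of the same deposited matrix in each dataset and were separated before use. The matrices held unnormalized counts by barcode, from Cell Ranger 6.0.1 per the file headers. The submitters' processing notes name Cell Ranger 2.0.0 and mm10. HTODemux (Seurat 5.3.0, quantile 0.99 for a positive call) found a single hashtag on 8343 of 11878 barcodes in dataset 1 and on 8516 of 13111 in dataset 2. Barcodes with more than 1 hashtag (2422 and 4572) were discarded as doublets, and those without any numbered 1113 and 23. A cell was kept from 1000 UMIs and 500 genes upward, with no more than 10% of UMIs mitochondrial. One dataset 2 library titled as mature LysoDCs lists a hashtag of immature cells, which is a further reason why subsets were not separated there.

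CPM are UMIs per 1000000 UMIs of the summed cells with exact Poisson 95% intervals, and shares have Clopper-Pearson 95% intervals. Both cover counting error only. Cells were thinned to 1000 UMIs for shares at equal depth, which left out 0 cells. Sums of raw counts, with 2409391 to 35505429 UMIs each, were tested in edgeR 4.0.16 (TMM, filterByExpr, robust quasi-likelihood, dataset as block), and SE is the log2 difference over the square root of F. The labels make dataset a shared batch, and deviations of sums of the same dataset from their population means correlated across genes at 0.181 to 0.343. The test was also run on simulated counts. These had the same spread for all genes and no difference between datasets, so that run does not cover either feature of the real sums. P-values measure the spread between pools only. DESeq2 1.42.0, other scaling, filters, hashtag calls and left-out sums were alternatives.

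The 6 genes and all gene lists were chosen with earlier results of these data known. Named besides them are relatives at 20 CPM or more, the lineage genes Ms4a1, Ms4a2, Ms4a3 and Ms4a4b, linked signalling genes that passed a comparison, and, for each of the 6, the 3 genes most correlated with it among those reaching 50 CPM in any sum. Gene positions are from GENCODE on GRCm38 and upstream sequences from RefSeq on GRCm38.p6.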

Additional observations from a re-analysis of the deposited data

Results flagged for a closer look

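In 3 of the 36 differences between populations, the 2 datasets had opposite signs, given here as log2 ratios of CPM + 1. Ms4a6b in LysoDCs against Ly6C+ monocytes was at -0.08186 in dataset 1 and 0.2947 in dataset 2. Ms4a6c in LysoDCs against DN blood cells was at -0.2076 and 0.1292. Ms4a4a in CD43+ against Ly6C+ monocytes was at -0.04156 and 0.5687, from 38 and 67 UMIs in dataset 1 and 22 and 28 UMIs in dataset 2. None of the 3 passed the test over both datasets, and the difference between datasets was not tested, as each had 1 pool per population.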

How the results depend on the processing

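Over 36 differences of the 6 genes and 15 alternatives, 0 of 540 values reversed a call, 28 lost it and 22 gained one, and 17 of 24 calls were kept under all alternatives. Without the replicate block for dataset, 963 instead of 1692 genes passed between DN blood cells and Ly6C+ monocytes. There Ms4a6b and Ms4a6c lost their calls (adjusted p = 0.106 and 0.0618), as did Ms4a4a between LysoDCs and DN blood cells (0.0504), while the block changed no other call of these genes. Leaving out 1 sum at a time gave 1322 to 3597 genes between CD43+ and Ly6C+ monocytes (3202 with all), 310 to 2253 between DN blood cells and Ly6C+ monocytes (1692 with all) and 1538 to 3910 between DN blood cells and CD43+ monocytes (3810 with all). The lowest counts came without the dataset 2 sums of CD43+, Ly6C+ and CD43+ monocytes, respectively. In the first comparison 1538 genes passed without the dataset 2 Ly6C+ sum, in the second 1125 without the dataset 1 Ly6C+ sum and 688 without the dataset 2 DN sum, and in the third 2293 without the dataset 2 DN sum. Without scaling factors, a setting added after seeing the data, the split of called genes went from 3258 higher and 3034 lower to 2339 and 4119 for LysoDCs against CD43+ monocytes. It went from 1546 and 1656 to 2290 and 1107 for CD43+ against Ly6C+ monocytes and from 1954 and 1856 to 1301 and 2659 for DN blood cells against CD43+ monocytes. The cause of these changes was not tested. The tests were not run with the 80% hashtag rule, which left 21 DN blood cells in dataset 1. Under it, 25 of 66 CPM values fell outside their counting interval and 11 moved over 1.5-fold, among them Ms4a4c in those DN blood cells (171 instead of 359 CPM). K-means hashtag calls, also added after seeing the data, moved 2 of 84 CPM values outside their interval, the mean of CPM per cell 14 of 84 (Ms4a7 in maturing cDC2s 38.6 instead of 23.2 CPM), and a minimum of 2000 UMIs 0 of 84. Of the shares of cells, 80 moved over 1.5-fold on thinning to 1000 UMIs, so unthinned shares are not comparable across populations of unequal depth.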
